A study of Mus musculus with 12 samples.

Results

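The transcripts of 39 genes of DNA replication and S phase, the period of the cell cycle in which chromosomes are copied, were followed in the large bowel of mice with and without colitis and with and without berberine (BBR). The genes were taken as a fixed list of symbols with a mean of at least 0.1 FPKM over the 12 mice, FPKM being fragments scaled to transcript length and sequencing depth. All 39 were among the 17734 genes of the deposited table, and all 39 passed that limit, as did 15315 genes in all. The lowest mean of a member was 0.614 FPKM for Pole, so none lay near the limit.

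Each of 4 groups had 3 male C57BL/6 mice aged 8 to 10 weeks by the methods of the study. Normal mice received neither agent. Colitis mice drank 2.5% dextran sulfate sodium (DSS), a polymer that injures the bowel lining, for 7 days. The remaining groups, normal mice receiving BBR and their counterparts with colitis, were gavaged with this plant alkaloid, for 6 days by the labels and from day 1 to day 7 by the methods. The RNA came from whole tissue, called colorectum in the labels and rectum in the methods. In such bulk samples, fewer cells of a type and less RNA per cell cannot be told apart. By their labels, the mice of either normal group are 1, 3 and 4, those with DSS alone 1, 2 and 4, and those with DSS and BBR 2, 3 and 4. Values below are listed in that order.

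Replication is prepared before S phase, when the origin recognition complex (Orc1, Orc6), Cdc6 and Cdt1 load rings of the MCM2-7 proteins onto DNA. In S phase, Cdc45 and the GINS complex join these rings to form the active helicase, primase and the DNA polymerases copy the strands, and the ring-shaped clamp Pcna, placed by replication factor C, holds the polymerases on DNA. Many of the genes are targets of E2F transcription factors, which the cyclin E kinase helps to release from the retinoblastoma protein. In the bowel, dividing cells sit mainly in the lower crypt, where stem cells and their immediate daughters renew the epithelium.

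Promoter sequences from RefSeq (GRCm38.p6, from 250 bases before to 50 after the start) were matched for 31 of the 39 members. An E2F motif, searched as TTTCCCGC, TTTGGCGC, TTTCGCGC or TTTGCCGC on both strands, was present in 13 of the 31 (41.9%), against 2.6% of 27025 genes. The 13 include Mcm3, Mcm5, Mcm6, Mcm7, Orc1, Cdc6, Cdt1, Pola1, Pold1, Pole2, Rfc3, Lig1 and Uhrf1. The letters CCAAT, also on both strands, stood in 17 of the 31 (54.8%, against 41.1% of all genes), and TTTGAA in 3 (9.68%, against 20.2%). The motifs were searched separately, so their matches may share bases. A match is a description of the letters and no evidence of binding, and binding was not measured here. Stretches of 140 bases from before the start of 3 genes that load or form the helicase are shown, 5′ to 3′ on the strand of the gene, with the E2F matches in capitals. In Mcm6, the first capital run holds 2 overlapping matches on opposite strands.
Mcm6 (chr1:128359706-128359845, minus strand): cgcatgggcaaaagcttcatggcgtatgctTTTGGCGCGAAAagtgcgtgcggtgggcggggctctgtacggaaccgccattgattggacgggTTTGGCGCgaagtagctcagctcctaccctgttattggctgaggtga
Orc1 (chr4:108579314-108579453, plus strand): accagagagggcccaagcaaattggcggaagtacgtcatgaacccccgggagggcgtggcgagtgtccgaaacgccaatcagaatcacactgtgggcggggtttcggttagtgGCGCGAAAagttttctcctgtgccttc
Cdc6 (chr11:98908011-98908150, plus strand): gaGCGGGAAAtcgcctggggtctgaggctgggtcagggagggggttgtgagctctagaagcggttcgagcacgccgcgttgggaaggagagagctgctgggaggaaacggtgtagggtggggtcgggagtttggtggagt

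Some libraries stood apart. The 4 mice numbered 4 had column totals of 482194 to 504337 FPKM and 872 to 1086 genes at 0, against 696286 to 765876 and 1332 to 1926 in the other 8. Mouse 2 of the colitis mice receiving BBR held the lowest value of its group for 36 members and of all 12 mice for 35, where 44.4% of all tested genes were lowest of the group in that mouse. Mouse 4 of the colitis mice was highest of its group for 36 members and highest of the 12 for 29, and it was highest of its group for 54.2% of all tested genes. From the steps between low values, 1 read was worth 54.7 to 85.3 FPKM times bases, so 3 reads on a transcript of 2000 bases correspond to 0.0821 to 0.128 FPKM. Of the 468 member values, 4 rested on fewer than 10 estimated reads, all of them in mouse 2 of the colitis mice receiving BBR, and the lowest was E2f1 with 4.32. These figures cover counting error only.

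The members spanned a wide range of levels. Pcna had the highest mean over the 12 mice, 66.4 FPKM, above 91.4% of tested genes, followed by Rfc2 (18.5), Gins4 (12.9) and Mcm7 (10.4). Besides Pole, the lowest were Cdc6 (0.857) and E2f1 (1.13). The mean log2(FPKM + 0.1) over the 39 members was 2.36, 2.34 and 2.33 in the normal mice. With BBR it was 1.57, 1.97 and 1.21 in mice without colitis. It was 1.66, 2.02 and 2.85 in colitis mice, and 0.29, 1.96 and 2.0 once these also had BBR. The normal mice lay within a narrow band, all above the normal mice receiving BBR, whereas both colitis groups spread widely and overlapped each other.

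**Figure D1:**
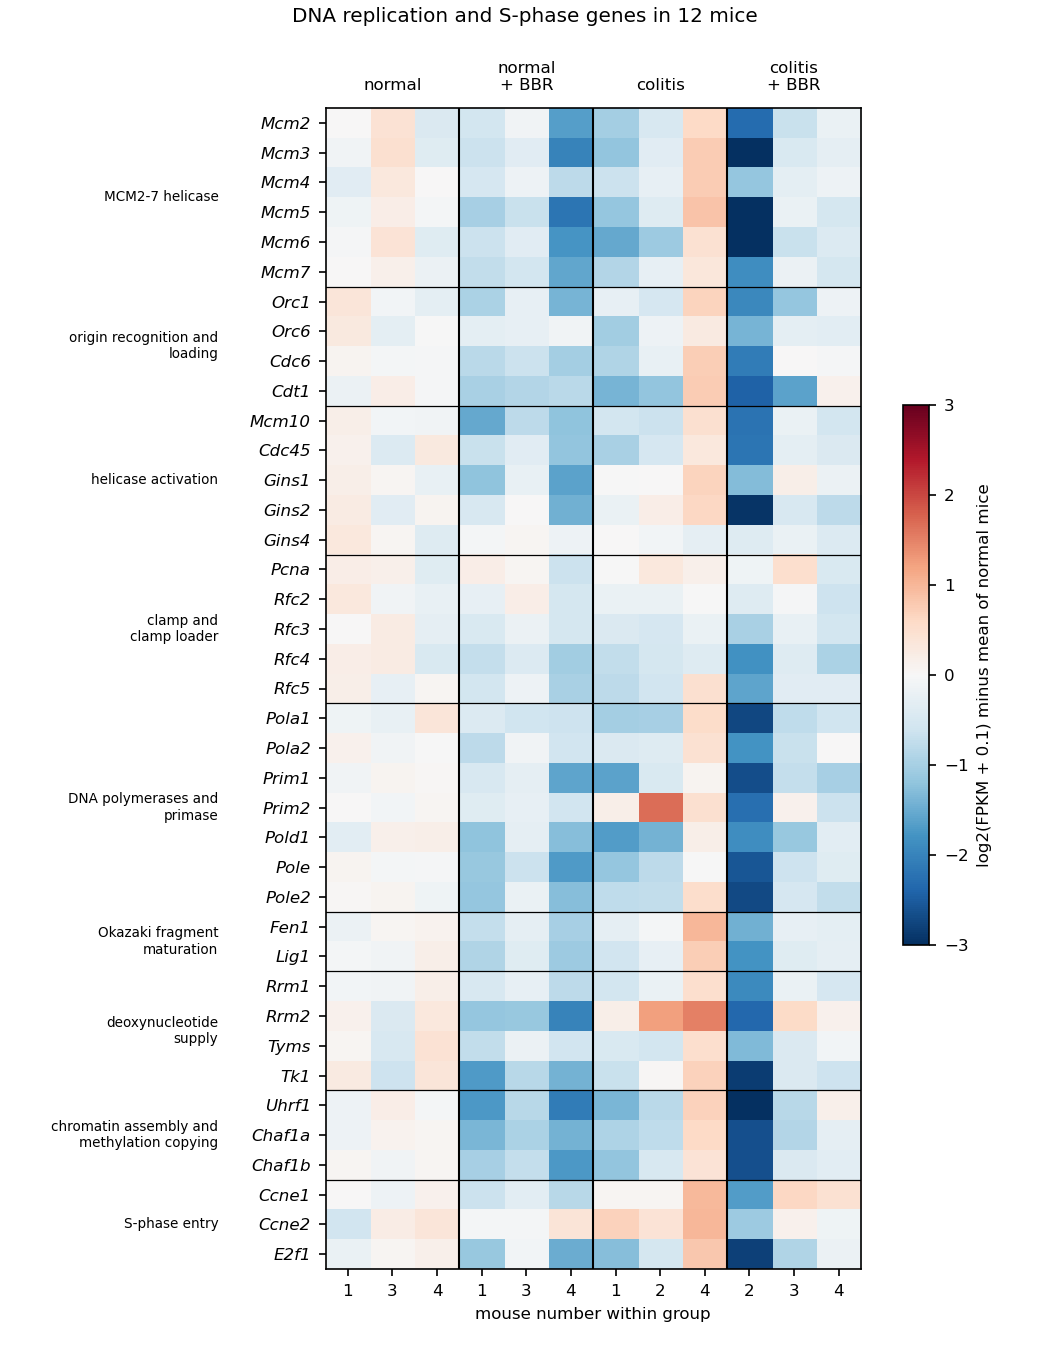
Log2(FPKM + 0.1) of the 39 genes in each of the 12 mice, minus the mean of the 3 normal mice for that gene, with genes in rows grouped by role and mice in columns grouped by treatment. Red is higher and blue lower than normal, and the colour scale ends at 3 in both directions. Mouse 2 of the colitis mice receiving BBR is lowest of the 12 mice for 35 genes, and mouse 4 of the colitis mice is highest for 29.

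The first comparison asks what BBR did to these genes without colitis. In normal mice receiving BBR, 38 of the 39 members had lower means on the log2 scale than in normal mice, and 1 (Ccne2, log2 difference 0.09 ± 0.38 (SE)) had a higher one. The median log2 difference of the members was −0.77, against −0.02 for all tested genes. In 19 of the 39 (48.7%), every mouse receiving BBR was below every normal mouse, which held for 5.46% of all genes. None of the 39 passed limma at an adjusted p under 0.05 (smallest 1.00), nor did any gene of the table (0%). At the limit used in the study's methods, an unadjusted p no higher than 0.05, 5 members passed, all lower (12.8%, against 0.842% of all genes lower): Mcm10, Gins1, Rrm2, Tk1 and Chaf1a. With the replicate number as a block, 10 members passed that limit, against 1.59% of all genes, and with only the 2 groups compared in the fit 21 did, against 3.47%. The count of 5 dropped to 0 without normal mouse 1, without BBR mouse 1 or without BBR mouse 4, to 1 without normal mouse 3 or 4 and, using mice numbered 1 to 3 alone, to 1, while the share of all genes lay between 0.340% and 0.953% in these fits. The median stayed between −0.97 and −0.50 when single mice were left out.

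**Figure D2:**
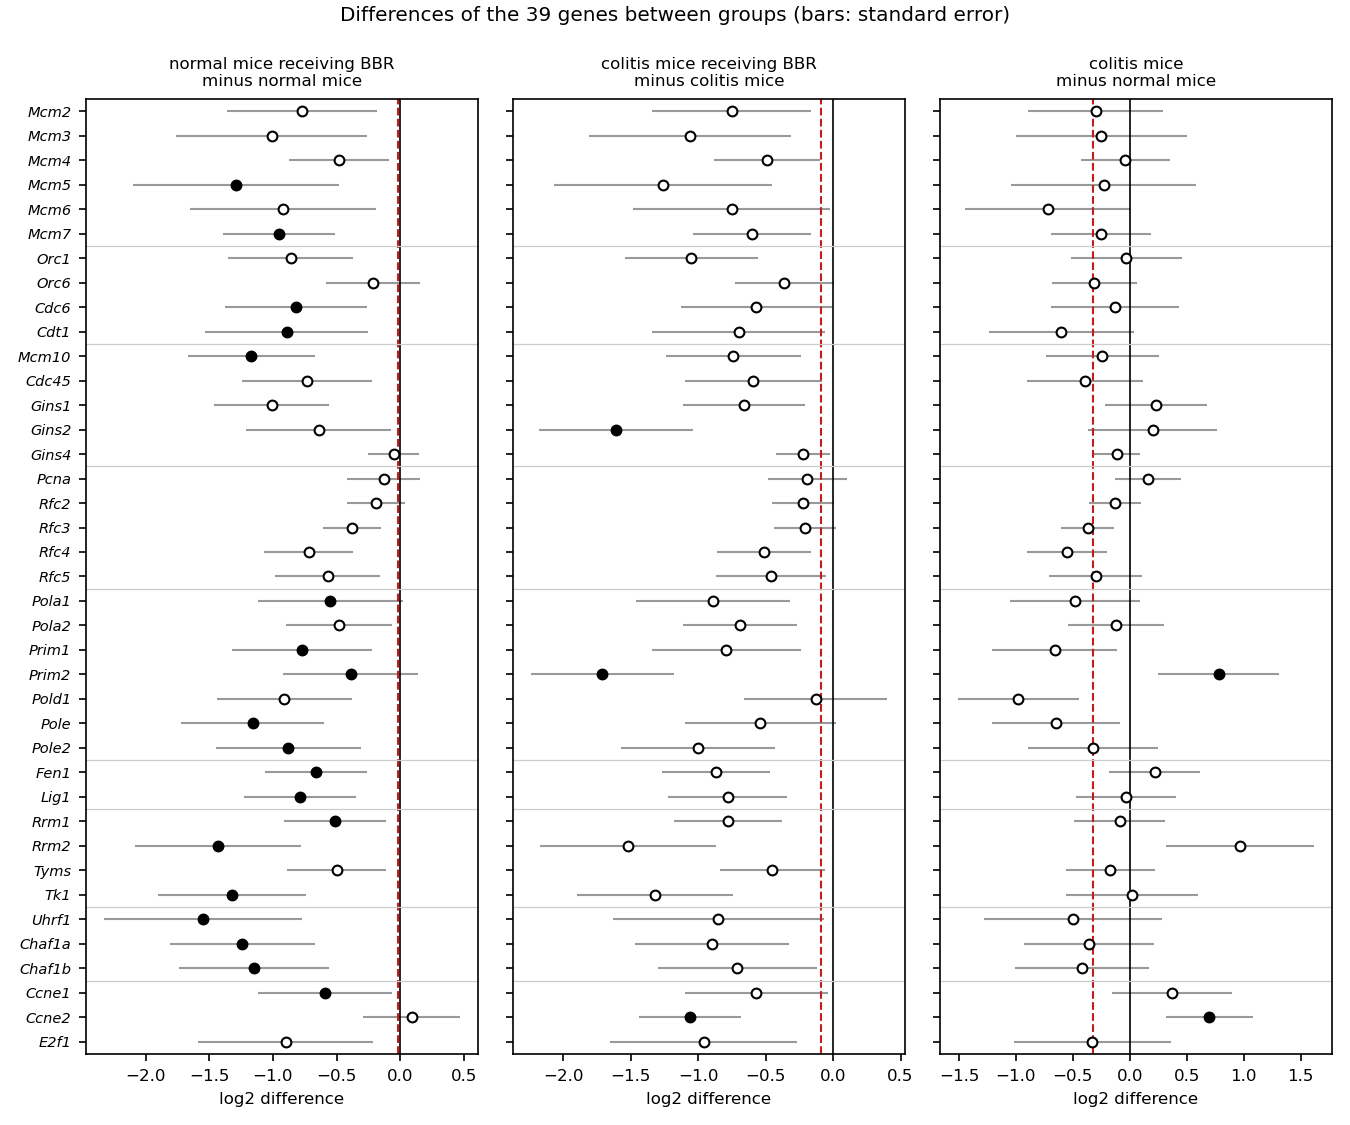
Log2 difference (horizontal axis) of each of the 39 genes (vertical axis) for normal mice receiving BBR minus normal mice, colitis mice receiving BBR minus colitis mice, and colitis mice minus normal mice. Bars are standard errors from limma, filled points are genes whose groups of 3 mice do not overlap, and the dashed red line is the median of all 15315 tested genes. The points lie left of 0 for 38, 39 and 30 of the 39 genes.

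The helicase ring, MCM2-7, was lower in mean for all 6 genes, with log2 differences from −0.48 (Mcm4) to −1.29 (Mcm5). Mcm5 was 5.7, 7.2 and 5.97 FPKM in normal mice and 3.09, 3.87 and 1.30 in those receiving BBR. Mcm7 was 13.92, 15.21 and 12.23 against 8.16, 9.31 and 4.63, a log2 difference of −0.95 ± 0.44 (SE, limma p = 0.0510, adjusted p = 1.00, exact permutation p = 0.1). For these 2 genes the groups did not overlap. Mcm2, Mcm3, Mcm4 and Mcm6 overlapped, since BBR mouse 3 lay above normal mouse 4 or normal mouse 1. Between mice of the same number, all 6 genes were lower with BBR in each of the 3 pairs, as were 30 of the 39 members (76.9%, against 13.9% of all genes), a count added after the data had been seen. The labels do not say what the numbers mean. In deviations from the group means, normal mouse 3 correlated more with BBR mouse 1 (r = 0.46) than with BBR mouse 3 (0.11). The summed level of the 6 genes was 48.0, 62.6 and 42.7 FPKM in normal mice and 31, 38.4 and 16 with BBR.

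Among the genes that load the ring, Cdc6 and Cdt1 were below the normal mice in every mouse receiving BBR. Cdc6 was 1.12, 1.00 and 1.03 FPKM in normal mice and 0.56, 0.63 and 0.47 with BBR. Cdt1, whose protein is destroyed once S phase begins, was 3.85, 5.0 and 4.24 against 2.15, 2.30 and 2.45. Orc1, the subunit that comes and goes with the cell cycle, had a log2 difference of −0.86 ± 0.49 (SE) with overlap. Orc6 differed least in this group, at −0.21 ± 0.37 (SE).

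The genes that turn the loaded ring into a helicase held both large and small differences. Mcm10, a scaffold needed to start unwinding, was 2.77, 2.31 and 2.25 FPKM in normal mice and 0.78, 1.37 and 1.00 with BBR, which is 2.25-fold lower (log2 −1.17 ± 0.50, SE, limma p = 0.0375, adjusted p = 1.00, exact two-sided permutation p = 0.1, the smallest that 3 mice against 3 allow). Gins1 was 2.55, 2.34 and 1.90 against 0.92, 1.92 and 0.67, so that BBR mouse 3 reached the normal range. Gins4, a subunit of the same 4-protein complex, was 17.48, 14.48 and 10.69 against 13.36, 14.58 and 12.54, a log2 difference of −0.05 ± 0.20 (SE). The ratio of Gins1 to Gins4 FPKM was 0.162 ± 0.0159 (SD, n = 3) in normal mice and 0.0847 ± 0.0415 in normal mice receiving BBR. The ratio of Gins2 to Gins4 overlapped between these groups (0.363 to 0.659 against 0.19 to 0.458). That of Mcm2 to Mcm6 had means of 0.476 and 0.524. Cdc45 and Gins2 had log2 differences of −0.73 and −0.64, with overlap.

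The clamp and its loader differed least. Pcna, much used as a marker of dividing cells, was 74.62, 72.18 and 50.73 FPKM in normal mice and 74.04, 68.03 and 41.14 with BBR, a log2 difference of −0.13 ± 0.29 (SE). Rfc2 to Rfc5 had log2 differences of −0.19, −0.38, −0.72 and −0.57. No gene of this group separated the mice receiving BBR from normal mice. In both groups the mouse numbered 4 had the lowest Pcna level.

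**Figure D3:**
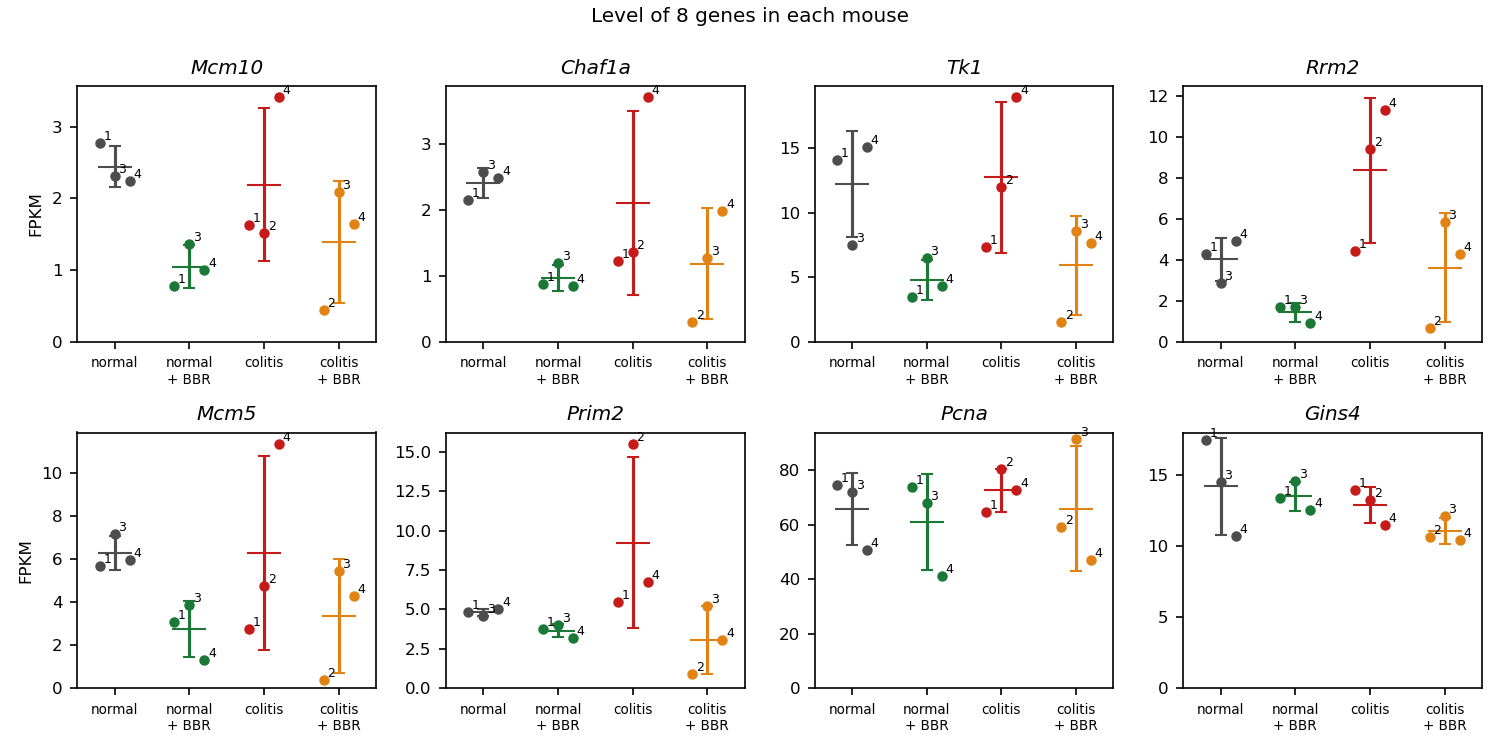
FPKM (vertical axes, from 0) of 8 of the genes in each mouse of the 4 groups, with mouse numbers beside the points and the mean ± SD of 3 mice as a bar. Mcm10, Chaf1a, Tk1, Rrm2, Mcm5 and Prim2 are lower in all 3 normal mice receiving BBR than in all 3 normal mice, whereas Pcna and Gins4 overlap.

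Of the 7 polymerase and primase genes, 5 (Pola1, Prim1, Prim2, Pole and Pole2) were lower in every mouse receiving BBR. Pola2, a subunit of the complex of polymerase alpha and primase, overlapped, at 4.72, 4.03 and 4.28 FPKM in normal mice and 2.48, 4.05 and 2.89 with BBR, and so did Pold1. Pole, the catalytic subunit of the polymerase of the leading strand, was 1.04, 0.93 and 0.94 FPKM in normal mice and 0.39, 0.58 and 0.23 with BBR (log2 −1.16 ± 0.56, SE, limma p = 0.0600, adjusted p = 1.00, exact permutation p = 0.1). Prim2, the large primase subunit, differed less, at 4.87, 4.57 and 5.01 against 3.75, 4.01 and 3.22, yet without overlap. Fen1 and Lig1, which trim and join the pieces of the lagging strand, were also separated, with log2 differences of −0.66 ± 0.40 and −0.79 ± 0.44 (SE).

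By role, the median log2 difference was farthest from 0 in the 3 genes of chromatin copying (−1.24), followed by MCM2-7 (−0.93) and the 4 genes of deoxynucleotide supply (−0.91). Rrm2, the small subunit of ribonucleotide reductase whose amount rises in S phase, was 4.28, 2.88 and 4.93 FPKM in normal mice and 1.71, 1.72 and 0.91 with BBR, 2.70-fold lower (log2 −1.43 ± 0.65, SE, limma p = 0.0486, adjusted p = 1.00, exact permutation p = 0.1). Rrm1, the large subunit, which is more stable through the cycle, differed by −0.51 ± 0.40 (SE). It too was without overlap, at 11.01, 10.83 and 13.22 against 8.31, 9.72 and 6.74. The ratio of Rrm2 to Rrm1 was accordingly 0.343 ± 0.0668 (SD, n = 3) in normal mice and 0.173 ± 0.0356 in those receiving BBR, with no overlap (0.266 to 0.389 against 0.135 to 0.206). Tk1, a thymidine kinase of dividing cells, was 14.05, 7.53 and 15.10 against 3.51, 6.53 and 4.31, 2.5-fold lower (limma p = 0.0437, adjusted p = 1.00, exact permutation p = 0.1). Tyms, which makes thymidylate, had a log2 difference of −0.50 ± 0.39 (SE) with overlap.

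Uhrf1, which brings the maintenance methyltransferase to newly copied DNA, had the largest log2 difference of the 39, −1.55 ± 0.78 (SE), with 4.0, 5.18 and 4.30 FPKM in normal mice and 1.29, 2.45 and 0.97 with BBR. Its limma p was 0.0706. Chaf1a and Chaf1b, subunits of the factor that places histones on new DNA, were lower in every mouse receiving BBR. Chaf1a was 2.15, 2.58 and 2.49 against 0.87, 1.19 and 0.84, 2.37-fold lower (limma p = 0.0497, adjusted p = 1.00, exact permutation p = 0.1). Among the genes of S-phase entry, Ccne1 (cyclin E1) was separated, at 2.0, 1.79 and 2.2 against 1.23, 1.59 and 1.08, whereas E2f1 (log2 −0.90 ± 0.69, SE) and Ccne2 overlapped.

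In colitis mice, BBR was tested against DSS alone. All 39 members had lower means in colitis mice receiving BBR, with a median log2 difference of −0.74 against −0.09 for all tested genes. Only 3 of the 39 (7.69%) were without overlap, near the 5.66% of all genes. No member passed the adjusted limit (smallest adjusted p 0.522), and 0% of all genes did. At the unadjusted limit 6 passed, all lower (15.4%, against 5.20% of all genes lower): Gins2, Prim2, Fen1, Rrm2, Tk1 and Ccne2. These values rested on single mice. Without mouse 2 of the colitis mice receiving BBR the median was −0.14, 30 of the 39 were lower and 1 passed, against 2.46% of all genes. Without colitis mouse 4 the median was −0.37 and 1 passed (against 4.39%), and without mouse 3 or mouse 4 of the colitis mice receiving BBR the count was 10 or 12 (against 7.54% and 9.54%). With only the 2 groups compared in the fit it was 3, against 2.92%.

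Prim2 had the largest log2 difference of this comparison, −1.71 ± 0.53 (SE, limma p = 0.00747, adjusted p = 0.522, exact permutation p = 0.1). It was 5.47, 15.49 and 6.77 FPKM in colitis mice and 0.92, 5.24 and 3.06 with BBR, with mouse 2 highest of the colitis mice and mouse 2 lowest of those with BBR. Gins2 was 5.73, 7.62 and 10.24 against 0.78, 4.72 and 3.79 (log2 −1.61 ± 0.57, SE, limma p = 0.0164, adjusted p = 0.625, exact permutation p = 0.1). Ccne2 (cyclin E2), which did not separate the normal groups, was 3.29, 2.66 and 4.10 against 0.88, 2.2 and 1.82 (log2 −1.06 ± 0.38, SE, limma p = 0.0169, adjusted p = 0.631, exact permutation p = 0.1). In these 3 genes, and in no other member, the groups did not overlap.

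In other members the groups overlapped, with BBR mouse 2 lowest of the 6 mice in Rrm2, Tk1, Fen1, Mcm5 and Uhrf1. Rrm2 was 4.45, 9.41 and 11.33 FPKM in colitis mice and 0.69, 5.87 and 4.30 with BBR, which left colitis mouse 1 between the mice receiving BBR (limma p = 0.0379, adjusted p = 0.731, exact permutation p = 0.2). Tk1 was 7.31, 12.03 and 18.95 against 1.55, 8.58 and 7.62. Fen1 was 4.53, 5.22 and 11.02 against 1.97, 4.61 and 4.48. Mcm5 was 2.76, 4.75 and 11.35 against 0.38, 5.44 and 4.28, and Uhrf1 was 1.67, 2.5 and 7.27 against 0.34, 2.47 and 5.0. Mice 3 and 4 receiving BBR thus lay inside the range of the colitis mice for Mcm5 and Uhrf1. The members with the smallest differences were Pold1 (log2 −0.13), Pcna (−0.19), Rfc3 (−0.21), Gins4 (−0.22) and Rfc2 (−0.22), and Pcna reached 91.35 FPKM in BBR mouse 3, its highest value. In Pcna, Gins4 and Rfc2 the lowest of the 6 mice was BBR mouse 4.

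**Figure D4:**
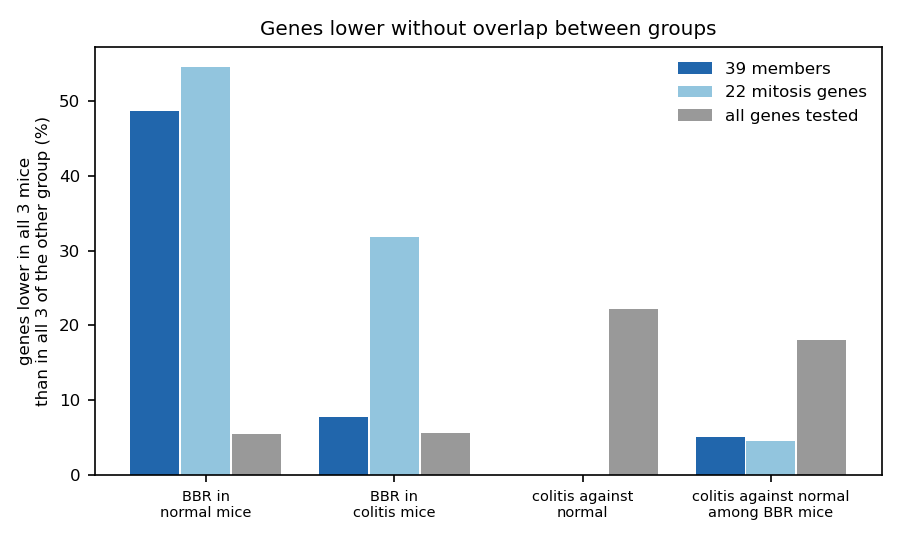
Share of genes (%) that were lower in all 3 mice of the first group than in all 3 of the second, for 4 comparisons, with the 39 members in dark blue, 22 mitosis genes in light blue and all 15315 tested genes in grey. For BBR in normal mice the shares are 48.7%, 54.5% and 5.46%, and for colitis against normal the 39 members and the mitosis genes have no such gene.

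Colitis itself gave no direction that held in all settings. Between colitis and normal mice, 30 of the 39 had lower and 9 higher means (76.9% lower, against 73.7% of all tested genes). The median log2 difference of the members was −0.24, where the median of all tested genes was −0.32. The median of the members depended on the setting and on single mice. It was 0.15 after quantile normalization, 0.10 after centring on the median of each mouse, 0.20 with the replicate number as a block and 0.05 without colitis mouse 1. It was −0.56 without colitis mouse 4 and −0.60 with the mice numbered 1 to 3 alone, where the medians of all genes were −0.45 and −0.42. No member passed the adjusted limit (smallest adjusted p 0.290), against 1.08% of all genes. At the unadjusted limit the members' counts were 0 lower and 0 higher, against 15.9% and 5.56% of all genes. Without colitis mouse 4, 2 were lower at that limit, against 25.3% of all genes, and after quantile normalization 3 were higher, against 9.72%. No member was lower without overlap, against 22.2% of genes, and 2 were higher without overlap, against 7.10%. These 2 were Prim2, at 4.87, 4.57 and 5.01 FPKM in normal and 5.47, 15.49 and 6.77 in colitis mice, and Ccne2, at 1.30, 2.34 and 2.58 against 3.29, 2.66 and 4.10.

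Rrm2 had the largest positive difference with colitis (log2 0.97 ± 0.65, SE, limma p = 0.163, adjusted p = 0.378, exact permutation p = 0.2), and Pold1, the catalytic subunit of the lagging-strand polymerase, the largest negative one (−0.98 ± 0.53, SE, limma p = 0.0894, adjusted p = 0.290, exact permutation p = 0.4). Pold1 was 2.83, 3.97 and 4.0 in normal mice and 1.05, 1.26 and 4.0 in colitis mice, so mouse 4 was at the normal level. The ratio of Rrm2 to Rrm1 was 0.56, 0.936 and 0.688 in colitis mice, all above the normal mice, and 0.227, 0.579 and 0.528 with colitis and BBR. The ratio of Prim2 to Prim1, the partners of the primase, was 2.59 ± 1.34 (SD, n = 3) in colitis and 0.832 ± 0.0826 in normal mice. All ratios in the text were chosen after the values were seen and are given without a test.

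Among the mice receiving BBR, 28 members had lower and 11 higher means with colitis (71.8% lower, against 80.1% of all tested genes). The median was −0.20, against −0.40 for all tested genes. The smallest adjusted p was 0.387, where 0.0392% of all genes passed. None was lower at the unadjusted limit, against 17.3% of genes, and 2 (Gins4 and Orc6) were lower without overlap, against 18.0%. Without mouse 2 of the colitis mice receiving BBR the median was 0.27, and after quantile normalization 0.30.

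The difference between the effects of BBR in colitis and in normal mice was tested as an interaction. Its median over the members was 0.00, with 18 values below and 21 above 0. No member passed the adjusted limit (smallest adjusted p 1.00, 0% of all genes) or the unadjusted one (against 1.72% of genes lower). The values farthest from 0 were those of Prim2 (−1.31 ± 0.75, SE) and Ccne2 (−1.15 ± 0.54, SE), both with a limma adjusted p of 1.00. Without mouse 2 of the colitis mice receiving BBR the median interaction was 0.59.

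The mean of both BBR effects was added as a comparison after the data had been seen. All 39 members were lower with BBR, as were 60.9% of all tested genes. The median of the members was −0.77, against −0.06 for all tested genes. The unadjusted limit was passed by 16 members, all lower (41.0%, against 4.11% of all genes lower). None passed the adjusted limit (smallest adjusted p 0.885), and 0% of all genes did. The smallest limma p-values were those of Rrm2 (0.00771; 2.79-fold lower) and Tk1 (0.00795; 2.49-fold lower), both with an adjusted p of 0.885. An exact two-sided permutation of BBR within the normal and within the colitis mice, whose smallest possible p is 0.005, gave 0.005 for Prim2, 0.01 for Rrm2 and Fen1, 0.015 for Gins2 and 0.02 for Tk1, none adjusted for the number of genes. The other members past the limma limit were Mcm5, Mcm7, Orc1, Mcm10, Gins1, Rfc4, Pole2, Lig1, Rrm1, Chaf1a and Chaf1b. The count of 16 was 6 without colitis mouse 4, 8 without mouse 2 of the colitis mice receiving BBR or without mouse 4 of the normal mice receiving BBR, 10 without normal mouse 3 or mouse 1 of the normal mice receiving BBR and 25 without mouse 4 of the colitis mice receiving BBR, while the share of all genes in these fits ran from 2.56% to 7.90%. With only the mice numbered 1 to 3 it was 3, against 4.0% of all genes, and all 39 were still lower.

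Among 44 other replication genes, 38 had lower means with BBR in normal mice (median −0.38) and 40 in colitis mice (median −0.38). In normal mice 16 were lower without overlap (36.4%, against 5.46% of all genes) and 0 past the unadjusted limit (against 0.842%). In colitis mice 5 were lower without overlap (11.4%, against 5.66%) and 1 past the limit (2.27%, against 5.20%). Clspn, a checkpoint mediator at the fork, was 0.94, 1.17 and 1.30 FPKM in normal mice and 0.41, 0.61 and 0.38 in normal mice receiving BBR. Dbf4, the activating partner of the Cdc7 kinase, was the gene past the limit in colitis mice (log2 −1.29 ± 0.55, SE, limma p = 0.0356, adjusted p = 0.718, exact permutation p = 0.1). Of 29 tested regulators of S-phase entry, 22 and 20 were lower (medians −0.19 and −0.14), 1 and 2 of them past the limit (3.45% and 6.90%). The gene past the limit in normal mice was E2f2 (log2 −1.94 ± 0.62, SE, limma p = 0.00908, adjusted p = 1.00, exact permutation p = 0.1). In colitis mice they were Ccna2 (cyclin A2, log2 −2.46 ± 0.84, SE, limma p = 0.0134, adjusted p = 0.597, exact permutation p = 0.1) and the kinase inhibitor Cdkn2c.

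The 22 mitosis genes, which act after replication, were lower with BBR for all 22 in both settings, with medians of −1.28 in normal and −1.98 in colitis mice, larger than those of the 39 members. Of them, 3 passed the unadjusted limit in normal mice (13.6%, against 0.842% of all genes lower) and 20 in colitis mice (90.9%, against 5.20%), although only 7 (31.8%, against 5.66%) were without overlap in colitis mice. None had an adjusted p under 0.05 (smallest 1.00 and 0.486). Their summed level was 7.91 FPKM in mouse 2 of the colitis mice receiving BBR and 80 to 112 in the other 2 of that group, against 115 to 328 in colitis mice. In that mouse Mki67, a marker of dividing cells, was 0.42 FPKM and Top2a, which untangles copied DNA, 0.25, where the other 11 mice had at least 5.0 and 3.73. The mean log2 level of the mitosis genes was −1.56 in that mouse against 1.93 and 1.40 in mice 3 and 4, and that of the members 0.29 against 1.96 and 2.0. The summed level of MCM2-7 was 9.39 FPKM against 38.2 and 38.5.

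**Figure D5:**
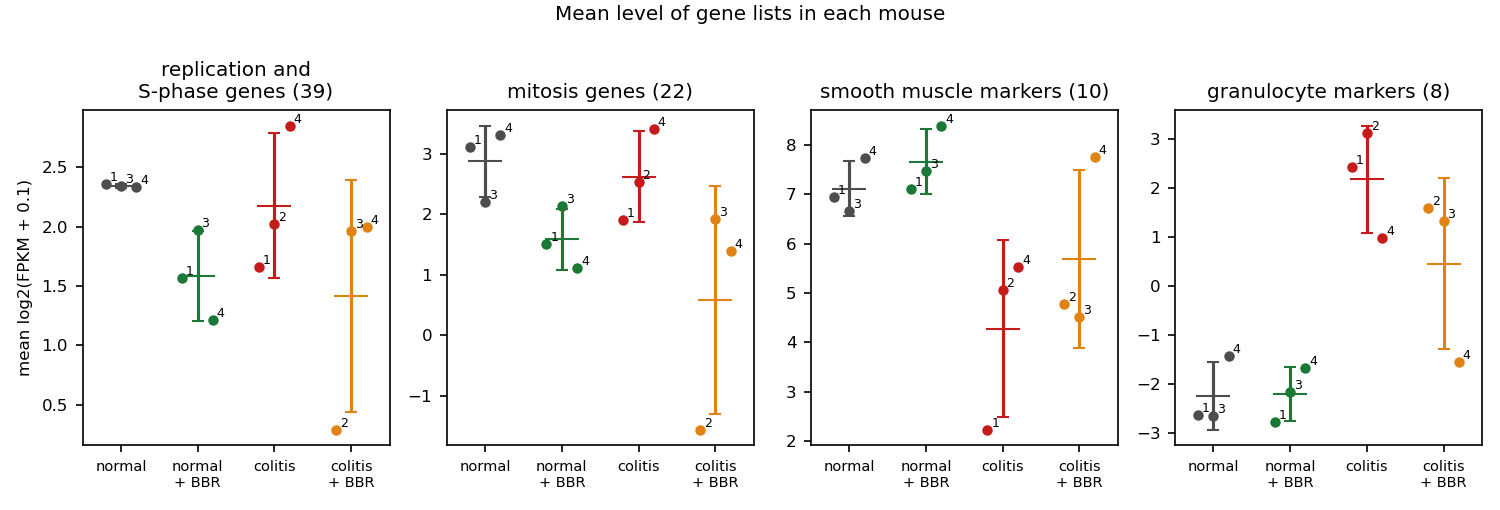
Mean log2(FPKM + 0.1) of the 39 replication and S-phase genes, 22 mitosis genes, 10 smooth muscle markers and 8 granulocyte markers in each mouse of the 4 groups, with mouse numbers beside the points and the mean ± SD of 3 mice as a bar. The 39 genes are lowest, at 0.29, in mouse 2 of the colitis mice receiving BBR, where the mitosis genes are at −1.56.

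Markers of other cells moved beside these values. The 10 smooth muscle markers had higher means with BBR for all 10 in normal (median 0.56, 0 past the unadjusted limit) and all 10 in colitis mice (median 1.29, 0 past it). Their summed level ran from 2015 to 3621 FPKM in normal mice, 2795 to 5827 when these received BBR, 92.8 to 812 with colitis and 570 to 3925 with colitis and BBR, with no marker at 0 in a group. Mouse 4 had the highest mean log2 level of the muscle markers in every group. Its mean log2 level of the 39 genes was lowest in both normal groups and highest in both colitis groups. Some of these ranks were near ties. The 39 genes were at 2.33 in normal mouse 4 against 2.34 and 2.36. In colitis mice receiving BBR, mouse 4 was at 2.0 and mouse 3 at 1.96. By summed FPKM, the 39 genes were at 218 in that mouse 4 and 272 in mouse 3. Summed muscle markers were at 801 in colitis mouse 4 and 812 in mouse 2. The 12 epithelial markers were lower for 9 of 12 in normal (median −0.14) and 7 of 12 in colitis mice (median −0.06), at 13239 to 20322, 14450 to 20553, 10891 to 16785 and 13459 to 18767 FPKM in the same order of groups. The crypt stem cell markers were lower in mean with BBR for 6 of 7 tested in normal mice (median −0.57, 0 past the limit) and 4 of 7 in colitis mice (median −0.04). Their sums were 47.0 to 64.9, 37.7 to 53.2, 11.3 to 49.4 and 11.7 to 53.8 FPKM, and Olfm4 was listed at 0 in both groups without colitis. Mouse 4 held the highest of these sums in both colitis groups (49.4 and 53.8 FPKM), where the others had 11.3 to 14.8. The 8 granulocyte markers summed to 0.68 to 3.6, 0.53 to 3.14, 46.8 to 490 and 2.99 to 211 FPKM, with S100a8 at 0 in both groups without colitis. Mouse 4 held the lowest of these sums in both colitis groups (46.8 and 2.99 FPKM), where the others had 200 to 490. The 8 macrophage markers were lower with BBR in colitis mice for all 8 (median −1.07, 6 past the limit, or 75.0%). Macrophage sums were 223 to 298, 208 to 324, 339 to 1012 and 178 to 336 FPKM. The granulocyte markers were also lower in mean with BBR in colitis mice for all 8 (median −1.98, 3 past the limit), as were 7 of 7 fibroblast markers (median −1.0, 1 past it) and 7 of 7 tested T cell markers (median −0.51, 1 past it). Of all tested genes, 54.0% were lower with BBR in normal mice and 62.0% in colitis mice (median −0.09). In colitis mice 5.20% were lower past the limit and 5.66% lower without overlap. Of the B and plasma cell markers 4 of 8 were lower there (median −0.03), and 2 of them, Jchain and Mzb1 of plasma cells, were past the limit and without overlap (log2 −2.05 and −1.65), with sums of the list of 202 to 246, 158 to 278, 36.2 to 103 and 6.51 to 39.2 FPKM. Of the germinal centre markers 3 of 6 tested were lower (0.08) and of the squamous markers 4 of 4 (−0.29), with 0 past the limit. The goblet cell markers had higher means in colitis mice receiving BBR for 7 of 7 (median 0.60, 0 past the limit). In normal mice the medians of the granulocyte, fibroblast, T cell and goblet cell lists were 0.06, 0.12, −0.02 and −0.09, with 0 genes past the limit. Fibroblast sums were 299 to 500, 340 to 654, 200 to 784 and 188 to 278 FPKM, T cell sums 5.51 to 6.6, 4.37 to 8.82, 6.06 to 11.7 and 2.31 to 7.32, and goblet cell sums 15031 to 34467, 16402 to 31366, 9937 to 74595 and 17285 to 83177. The part of these cells in the values of the 39 genes was not tested.

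Overlapping annotation limits some members. In the GENCODE annotation, 8 members share at least 10% of their exonic bases with a gene on the opposite strand, among them Fen1 (78.8%, Gm10143), Gins2 (69.0%, Gse1), Chaf1a (43.3%, Ubxn6) and Ccne2 (17.4%, Ints8). Whether the authors counted by strand is not given in the sources used here, so reads of these pairs may not be told apart. Pcna and Tyms have annotated pseudogene copies, and their values are uncertain to that extent.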

How the data were processed

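The authors filtered reads with SOAPnuke 1.5.2, aligned them with Bowtie2 2.2.5 to mm9 and estimated expression with RSEM 1.2.12, per the methods and the submitters' processing notes, and deposited 1 value per gene and mouse. These deposited values were read as FPKM from their size and total, and could also be TPM. They are not counts, and no further scaling between mice was applied. Groups and mouse numbers come from the labels, which differ from the methods in the library kit and the days of BBR.

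Values were transformed to log2(FPKM + 0.1), a scale that shrinks changes of low genes. All 15315 genes averaging 0.1 FPKM or more entered 1 fit of limma 3.58.1 (R 4.3.3) with a trend and 1 mean per group of the 12 mice, and p-values were adjusted by Benjamini-Hochberg over all of them. Single genes were also tested by exact two-sided permutation of the mice. The scripts were tested on simulated data, with figures in matplotlib 3.10.9 and depth estimates in Python 3.11.15. The depth was estimated from low-value steps of 2211 genes with a single transcript in the mouse GENCODE release M21, since the table holds no counts. RefSeq promoters are on another build (GRCm38.p6) than the reads.

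The 39 members, the other gene lists, the tests and the alternatives were chosen with earlier results of these data known. The text accounts for all 39 members. From each other list it names at most 6 genes, those with the smallest p-values or highest levels, and Mki67, Top2a, Clspn and Olfm4 were named after their values were seen. The fit, the permutations and the overlaps are unpaired. A fit with the replicate number as a block was an alternative, given beside BBR in normal mice because the deviations of mice 1, 3 and 4 from the means of both normal groups correlated for each pair (r = 0.29, 0.11 and 0.66), although mouse 1 correlated as well with mouse 3 (0.37 and 0.46). Colitis mice with and without BBR share only the numbers 2 and 4 (0.08 and 0.75), so that BBR over both settings and the interaction hold a pair below 0.1, and the remaining comparisons share 2 numbers each. Alternatives were other pseudocounts, filters, scalings and blocks, no trend, the compared groups alone, the 8 mice numbered 1 to 3 and leaving out each mouse. The mice are separate samples by their labels.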

Additional observations from a re-analysis of the deposited data

How the results depend on the processing

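For single members, 596 of 661 values for BBR in colitis mice and 577 of 661 for BBR in normal mice kept both direction and side of the unadjusted limit. Direction changed in 15 values of 10 genes and 5 values of 3 genes, and it changed in 90, 126 and 159 values for colitis against normal, the same among mice receiving BBR, and the interaction. In none of these was the value past the limit in either setting. The members' median log2 difference stayed below 0 for BBR in both settings under each alternative run. For colitis against normal it was −0.24, but 0.15 after quantile normalization, 0.10 after centring on the median and −0.60 with the 8 mice numbered 1 to 3.

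Counts of members past the unadjusted limit moved more. For BBR in normal mice (5) they were 3 with a mean of at least 1, 2 with no filter, 9 after quantile normalization, 10 after centring on the median, 3 without the trend, 1 with the 8 mice numbered 1 to 3, 21 with only the groups compared (where 3.47% of all genes were lower past the limit, against 0.842%) and 0 to 5 when single mice were left out. Under quantile normalization, centring and the 8 mice that share was 1.40%, 1.26% and 0.953%. It was 0.645% with a mean of at least 1, where 37 members were tested. With no filter it was 0.954%, without the trend 0.888%, and without single mice 0.340% to 1.13%. For BBR in colitis mice (6) they were 2 with the 8 mice and 3 with only the groups compared (6.21% and 2.92% of all genes lower, against 5.20%) and 1 to 12 when single mice were left out (2.46% to 9.54%). For colitis against normal (0) they were 3 higher after quantile normalization, 1 higher after centring, 2 lower with the 8 mice and 1 higher with only the groups compared (9.72%, 9.42%, 27.4% and 5.98% of all genes in that direction) and 0 to 2 without single mice. The 2 were lower without colitis mouse 4, against 25.3% of all genes. Among mice receiving BBR (0) they were 3 and 2 higher and 1 lower under quantile normalization, centring and the 8 mice (6.49%, 7.08% and 35.3% of all genes in that direction), and 0 to 3 without single mice. The 3 were higher without mouse 2 of the colitis mice receiving BBR, against 2.34% of all genes. For the interaction (0) they were 1 with a pseudocount of 1, 1 after quantile normalization, 1 without the trend, 1 with a block for the mice numbered 4 (1.82%, 1.35%, 1.83% and 3.0% of all genes lower) and 0 to 2 without single mice. The 2 were lower without mouse 3 of the colitis mice receiving BBR, against 3.73% of all genes. For BBR over normal and colitis mice (16) they were 3 with the 8 mice (4.0% of all genes lower, against 4.11%) and 6 to 25 without single mice (2.56% to 7.90%). The causes were not tested.

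With the replicate number as a block, the counts were 10 for BBR in normal mice, 16 for BBR in colitis mice, 1 for colitis against normal, 1 for the interaction and 32 for BBR over both, where 1.59%, 8.98%, 7.47%, 3.79% and 7.29% of all genes passed the limit in the same direction (higher for colitis against normal, lower otherwise), and the median of colitis against normal was 0.20. Over 13 pairs of mice with the same number, deviations from group means had a mean r of 0.34 (lowest 0.08), against −0.10 over 41 other pairs. Beyond BBR in normal mice the numbers were taken as only shared, since other pairs of groups share 2 numbers and the 5 pairs behind BBR over both and the interaction include 1 at 0.08. No member passed the adjusted limit under any alternative. The depth limits values under about 0.128 FPKM, the highest level that 3 reads give on a transcript of 2000 bases.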
